A study of Mus musculus with 92 samples.

Results

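Enteroendocrine cells are the hormone-secreting cells of the gut lining, and 10 genes that specify or mark them were followed here through 92 RNA-seq libraries of mouse small-intestinal tissue and cultures in which Eif4g2, a translation initiation factor gene, was deleted. The genes were the transcription factor genes Neurog3, Neurod1, Pax4, Pax6, Isl1, Insm1, Nkx2-2 and Rfx6 and the chromogranin genes Chga and Chgb. They were taken by symbol from the count tables, where 10 of 54532 genes matched. All 10 were lower in the flox/flox crypts of both Cre lines, and each was lower with 4-hydroxytamoxifen than with DMSO in the 3 flox/flox organoid lines and 6 flox/flox fetal spheroid lines given both. A smaller number of these differences passed the test across all genes in the Rosa26-CreER mice, and in organoids given A-485 the lowest dose called only Chgb lower while the higher doses lowered 8 of 9 tested members.

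The tissue came from tamoxifen-treated mice with Eif4g2(flox/flox) or Eif4g2(flox/+), so that the controls also carried 1 floxed allele and CreER. In the Rosa26(CreER) mice, collected on day 9, the recombinase can act in all cells. That set held crypts of 4 flox/flox and 5 flox/+ mice and villi of 5 and 5. In the Vil1(CreER) mice, whose protocol gives tamoxifen at 100 mg per kg on each of 4 days and which were collected at 3 months, the Vil1 promoter drives CreER in the intestinal epithelium, with crypts of 3 flox/flox and 4 flox/+ mice and villi of 6 and 4. One organoid experiment compared DMSO with 4-hydroxytamoxifen (4-OHT, the active form of tamoxifen, 0.5 µM for 24 h, collected on day 6) in 3 Eif4g2(flox/flox) lines. Another gave 4-OHT to 4 lines each of flox/flox, flox/+ and CreER-only genotype, the last of these with no floxed allele. Fetal spheroids of 6 flox/flox and 5 flox/+ lines received DMSO or 4-OHT. In the second organoid experiment and in the spheroids 4-OHT was also at 0.5 µM, with collection on day 6. The labels of these organoids and spheroids, and of the first organoid experiment, name the culture condition ENR. Finally, 4 organoid lines were kept for 4 days in DMSO or in 3, 5 or 10 µM A-485, an inhibitor of the acetyltransferases p300 and CBP, without 4-OHT. Of these, line 1 had no floxed allele and lines 2 to 4 were flox/flox. Each line is a culture of its own, but line 2 of this series carries the same line label as line 1 of the first organoid experiment.

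As background, enteroendocrine cells arise in the crypt from secretory progenitors that express Atoh1. A short pulse of Neurog3 commits a progenitor to the endocrine fate. Neurog3 then switches on Neurod1, Insm1, Nkx2-2 and Rfx6, and Pax4, Pax6 and Isl1 direct the choice among hormone-producing subtypes. Mature cells move up the villus and store hormones in dense-core granules, whose packing proteins include chromogranin A (Chga) and chromogranin B (Chgb). Neurog3 is therefore a marker of young cells in the crypt, and the chromogranins are markers of cells at later stages.

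The sequences upstream of 3 members are shown because these genes stand at the early and late ends of the lineage and are the ones followed through every dose of A-485. They are the 250 bases before the RefSeq start of Neurog3 (GRCm38.p6, chr10:62132840-62133089, plus strand) and of Chga (chr12:102554691-102554940, plus strand), and 30 bases of the Chgb promoter (chr2:132781559-132781588, plus strand). The Chgb bases precede its RefSeq start but lie in an exon of another annotated start of the gene. Capitals mark the E-box CAGCTG, bound by basic helix-loop-helix factors such as those encoded by Atoh1, Neurog3 and Neurod1, and the cyclic AMP response element TGACGT or its palindrome TGACGTCA, bound by CREB, a partner of p300 and CBP.
Neurog3: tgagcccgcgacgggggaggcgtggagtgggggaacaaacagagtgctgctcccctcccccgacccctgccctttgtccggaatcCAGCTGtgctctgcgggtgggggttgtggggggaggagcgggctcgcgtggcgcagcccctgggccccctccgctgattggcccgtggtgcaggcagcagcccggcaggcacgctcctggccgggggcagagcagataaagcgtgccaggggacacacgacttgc
Chga: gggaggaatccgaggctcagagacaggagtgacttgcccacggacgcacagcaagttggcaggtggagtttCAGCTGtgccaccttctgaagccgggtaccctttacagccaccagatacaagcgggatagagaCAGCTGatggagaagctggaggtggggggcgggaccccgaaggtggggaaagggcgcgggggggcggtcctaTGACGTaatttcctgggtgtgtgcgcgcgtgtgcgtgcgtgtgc
Chgb: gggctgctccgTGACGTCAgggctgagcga
The Chga promoter held CAGCTG at 179 and 116 bases before the start and TGACGT at 44 bases before it, the Neurog3 promoter CAGCTG at 165, and the Chgb promoter TGACGTCA at 72. RefSeq gave a promoter for 8 of the 10 members, with Pax4 and Insm1 unmatched and 2 starts for Pax6. In the others, Isl1 had CAGCTG at 103 and TGACGT at 59, Pax6 had TGACGTCA at 76 of its first start and TGACGT at 48 of its second, and Nkx2-2 had the E-box CAGATG at 220. The Neurod1 and Rfx6 promoters held none of these letters. By the gene bounds given below, the windows of Chgb, Nkx2-2, Rfx6 and the second Pax6 start lie inside the gene. That of Neurod1 lies partly inside it. Both strands were searched in 32851 promoters of the same 250-base length, of which 13% held CAGCTG, 14.4% CAGATG, 6.47% TGACGT and 1.55% TGACGTCA, every TGACGTCA also counting as TGACGT. A match is a description of the letters and not evidence of binding.

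All 10 genes are protein-coding. In GRCm38 coordinates, Neurog3 (ENSMUSG00000044312) lies at chr10:62133090-62134763 on the plus strand and Rfx6 (ENSMUSG00000019900) on the same chromosome and strand at 51677756-51730432. Chromosome 2 holds Neurod1 (ENSMUSG00000034701) at 79452521-79456751, Pax6 (ENSMUSG00000027168) at 105668900-105697364, Chgb (ENSMUSG00000027350) at 132781278-132795079, Insm1 (ENSMUSG00000068154) at 146221921-146225020 and Nkx2-2 (ENSMUSG00000027434) at 147177546-147194243. Pax4 (ENSMUSG00000029706) lies at chr6:28442334-28449353, Isl1 (ENSMUSG00000042258) at chr13:116298281-116309689 and Chga (ENSMUSG00000021194) at chr12:102554969-102565028. Neurod1, Pax4, Isl1 and Nkx2-2 are on the minus strand and the others on the plus strand. Exons of Neurog3 share 273 of 1674 bases with Fam241b on the opposite strand, those of Neurod1 share 201 of 2729 bases with Cerkl on the same strand, and those of Nkx2-2 share 278 of 2875 bases with the antisense gene Nkx2-2os. Whether the counting used strand is not given in the sources used here, so the levels of these 3 members carry that uncertainty. Fam241b stood at 7.80 to 11.9 CPM in the flox/+ Rosa26 villi while Neurog3 was at 0 to 0.237 CPM there, and Cerkl reached at most 1.24 CPM in any library.

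Total reads per library ran from 8652040 in the A-485 set, the shallowest, to 37611126 in the Rosa26 set. Eif4g2 itself fell from 356 ± 9.03 to 86.5 ± 14.3 CPM (mean ± SD; CPM, read counts scaled to a common library size) in Rosa26 crypts, from 490 ± 10.1 to 236 ± 7.10 in Vil1 crypts, from 747 ± 41.3 to 146 ± 2.13 in the DMSO and 4-OHT organoids and from 873 ± 166 to 124 ± 48.7 in flox/flox spheroids, and stood at 1182 to 1357 CPM on average across the A-485 doses. Summed counts of 4 crypt markers (Lgr5, Olfm4, Mki67 and Lyz1) were 13278 to 18042 CPM in flox/+ and 1278 to 6007 CPM in flox/flox Rosa26 crypts, and 7162 to 9831 against 566 to 1225 CPM in Vil1 crypts. Epithelial markers summed to 4288 to 5228 CPM in flox/+ and 3841 to 6195 CPM in flox/flox Rosa26 crypts. The mitochondrial share of reads was 8.55 ± 2.50% against 18.9 ± 5.02% in Rosa26 crypts and 23.3 ± 6.07% against 35.7 ± 4.98% in Vil1 crypts. The immune marker sum reached 1616 CPM in 1 flox/flox Rosa26 crypt library against at most 341 CPM in flox/+ crypts. Sox10, which defines enteric glia, was at 0 in every library. The enteric neuron list, which holds genes that endocrine cells also use, summed to 4.24 to 7.56 CPM in flox/+ Rosa26 crypts. An islet list, from pancreatic cells that use many of the same regulators, summed to 54.4 to 80.1 CPM in flox/+ and 13.5 to 98.0 CPM in flox/flox Rosa26 villi, with Ins1 at 0 in the first and Ins2 at 0 in the second. The part these shifts play in the results on the 10 genes was not tested. In bulk RNA, fewer cells of a type and less RNA per cell cannot be told apart.

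In control crypts the 2 chromogranins were far more abundant than the regulators. Levels between genes are compared as CPM per kilobase of the deposited gene length. In flox/+ Rosa26 crypts Chgb stood at 96.7 ± 20.6 CPM per kb (mean ± SD) and Chga at 51.5 ± 14.0. Insm1, a zinc-finger repressor, followed at 5.33 ± 0.919 CPM per kb and Neurog3 at 3.29 ± 0.731. These 4 lay apart by more than their SD, whereas Nkx2-2 at 1.80 ± 0.382 and Neurod1 at 1.58 ± 0.491 CPM per kb did not. Pax6 was lowest at 0.158 ± 0.0235 CPM per kb. Chgb ranked first and Chga second in every group except at 3 and 5 µM A-485. In flox/+ villi Neurod1 moved up to the third place, with 1.52 ± 0.658 CPM per kb in Rosa26 and 3.01 ± 0.685 in Vil1 mice, and Neurog3 dropped to the last, with 0.0484 ± 0.0591 and 0.0882 ± 0.0775. In Rosa26 villi these places lay within the SD of their neighbours, Insm1 at 1.38 ± 0.280 and Pax6 at 0.0714 ± 0.0239 CPM per kb. The A-485 controls had Neurog3 in the third place at 8.42 ± 2.07 CPM per kb.

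**Figure D1:**
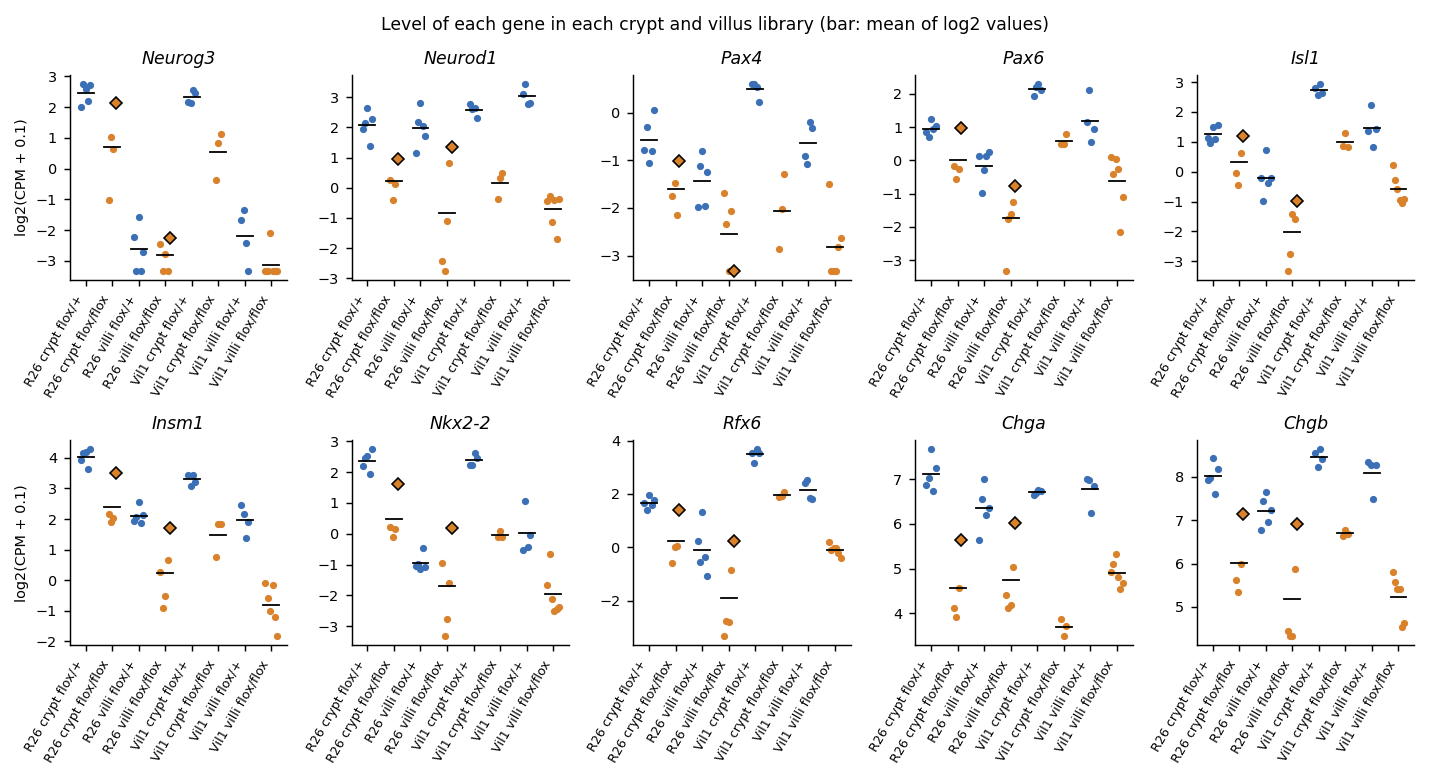
Level of each member in tissue, as log2(CPM + 0.1), with 1 point per library, flox/+ in blue, flox/flox in orange, the homozygous Rosa26 animal 5 as black-edged diamonds, and bars at the mean of the log2 values. Flox/flox points lie below flox/+ points for all 10 genes in Vil1 crypts, and animal 5 is the highest flox/flox crypt library for all 10 genes in Rosa26 crypts.

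The first comparison asked where along the crypt-villus axis the members were expressed in flox/+ control mice. Neurog3, the commitment factor, was a crypt transcript: flox/+ Rosa26 crypts held 3.93, 6.66, 5.96, 4.51 and 6.50 CPM and the villi of the same mice 0.115, 0, 0.237, 0 and 0.0539 CPM. The ranges were far apart, and 2 of the 5 villus libraries had no read. The log2 difference, crypt minus villus, was 6.00 ± 0.56 (SE, adjusted p = 8.29e-07), and in Vil1 mice 5.02 ± 0.56 (adjusted p = 1.81e-05). Nkx2-2, which acts just after Neurog3, was the next most crypt-restricted, at 4.47, 5.37, 5.69, 3.76 and 6.59 CPM in Rosa26 crypts against 0.355 to 0.625 CPM in villi, a log2 difference of 3.52 ± 0.25 (adjusted p = 8.47e-08). In Vil1 mice it was 2.29 ± 0.38 (adjusted p = 0.000329). Insm1 followed, with 1.89 ± 0.18 (adjusted p = 9.83e-07) in Rosa26 mice. In all, 9 of the 10 members were called higher in Rosa26 crypts, where 40.6% of all tested genes were, and 7 of 10 in Vil1 crypts, where 35.2% were. With all 4 Rosa26 tissue groups in the fit 5 were called, and Rfx6 (adjusted p = 0.0550), Chga (0.115), Chgb (0.140) and Pax4 (0.125) were not. The median log2 difference of the 10 was 1.25 in Rosa26 mice, beside 0.09 over all tested genes, and 1.19 beside 0.08 in Vil1 mice.

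Neurod1 was the exception among the regulators. It stood at 3.75, 4.34, 6.17, 2.54 and 4.80 CPM in flox/+ Rosa26 crypts and at 2.10, 4.47, 6.92, 4.06 and 3.18 CPM in their villi. The 2 sets of values overlapped, and the difference was -0.0022 ± 0.33 (adjusted p = 0.995). In Vil1 mice Neurod1 was lower in crypt than in villus in 4 of 4 animals, at 6.83, 5.98, 6.15 and 4.92 against 8.44, 10.8, 6.72 and 6.94 CPM, and the difference of -0.48 ± 0.21 did not pass the test (adjusted p = 0.0588). It did pass with DESeq2's size factors (-0.53, adjusted p = 0.0371) or Wald test (-0.53, adjusted p = 0.0217), and without the villus library of flox/+ animal 3 or of animal 4. Chga was at 117, 131, 204, 107 and 152 CPM in Rosa26 crypts and 49.8, 93.7, 127, 73.9 and 82.5 CPM in villi, with overlapping ranges and a log2 difference of 0.67 ± 0.25 (adjusted p = 0.0309) that was lost without crypt animal 3 (0.49, adjusted p = 0.0790) or crypt animal 5 (0.65, adjusted p = 0.0532). In Vil1 mice Chga differed by -0.12 ± 0.16 (adjusted p = 0.526) and Chgb by 0.30 ± 0.19 (adjusted p = 0.182), so neither was called there. Without the villus library of flox/+ animal 3, in which Chga and Chgb were lowest, Chga was called lower in crypts (-0.28, adjusted p = 0.0267). The Pax6 call in Vil1 mice (adjusted p = 0.0485) was lost without any 1 of 7 of the 8 libraries, with DESeq2's size factors (0.0524) and with all 4 tissue groups in the fit (0.1004). With those groups in the fit the Pax4 call there was lost too (1.14, adjusted p = 0.120). The Pax4 call in Rosa26 mice (adjusted p = 0.0443) was lost without crypt animal 1, 2 or 5 or villus animal 1, 4 or 5, by DESeq2's Wald test (0.0672), without the low-count filter (0.0661) and with the animal as a block (0.98, adjusted p = 0.0645).

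Deletion of Eif4g2 was then compared within each compartment. In crypts of the Vil1 mice all 10 members were lower in flox/flox than in flox/+ animals, and no flox/flox library overlapped the controls, where 21.7% of genes lay lower without overlap. All 10 passed the test, where 17.7% of 16954 tested genes were called lower, and their median log2 fold change was -1.72 beside 0.01 over all tested genes. Neurog3 stood at 4.41, 4.27, 5.80 and 5.44 CPM in flox/+ and 0.676, 1.70 and 2.08 CPM in flox/flox crypts, a log2 fold change of -1.68 ± 0.35 (adjusted p = 0.00886). Of the factors that follow it, Neurod1 fell from between 4.92 and 6.83 to between 0.676 and 1.31 CPM (-2.44 ± 0.27, adjusted p = 0.000582). Nkx2-2 fell from between 4.55 and 6.05 to between 0.826 and 0.970 CPM (-2.49 ± 0.21, adjusted p = 0.000177). Insm1 fell by 1.72 ± 0.28 and Rfx6, which drives peptide-hormone cells, by 1.49 ± 0.16 on the log2 scale. Among the subtype factors, Pax4 fell from between 1.08 and 1.42 to between 0.0375 and 0.311 CPM (-2.92 ± 0.55, adjusted p = 0.00534), on few reads. Isl1 fell by 1.72 ± 0.20 and Pax6 by 1.54 ± 0.21 on the log2 scale.

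The chromogranins had the smallest SE of the 10 members in these crypts. Chga stood at 99.5, 103, 109 and 107 CPM in the 4 flox/+ and 14.5, 11.2 and 13.1 CPM in the 3 flox/flox mice. Chgb stood at 373, 298, 398 and 342 against 99.5, 109.5 and 103 CPM. Every flox/flox value lay far under every control value for both genes, and the log2 fold changes were -2.95 ± 0.12 for Chga (adjusted p = 1.17e-05) and -1.70 ± 0.12 for Chgb (adjusted p = 7.43e-05). Among all alternatives run for Vil1 crypts, including each library left out in turn, only the Neurog3 call was ever lost, with all 4 tissue groups in the fit (adjusted p = 0.0532).

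In Vil1 villi 8 members were tested, Neurog3 and Pax4 being too low, and all 8 fell with no overlap of the groups, where 21.6% of 15107 genes were called lower and 16.7% lay lower without overlap. Their median log2 fold change was -2.41 beside 0.05 over all tested genes. Neurod1 had the largest log2 fold change of the 8, from 8.44, 10.8, 6.72 and 6.94 CPM in flox/+ villi to a lowest, median and highest value of 0.211, 0.645 and 0.730 CPM in the 6 flox/flox mice (-3.91 ± 0.31, adjusted p = 7.71e-07). Insm1 fell by 2.93 ± 0.39 on the log2 scale (adjusted p = 6.75e-05). Chgb went from 326, 309, 179 and 309 CPM to 23.1, 42.5 and 55.8 CPM, lowest, median and highest (-2.85 ± 0.25, adjusted p = 3.85e-06). Chga went from 128, 127, 75.3 and 116 to 23.3, 29.2 and 40.3 CPM (-1.89 ± 0.17, adjusted p = 3.01e-06). The other 4, Pax6, Isl1, Nkx2-2 and Rfx6, fell by 1.93 to 2.43 on the log2 scale. Each of the 8 calls held without any 1 library. The immune marker sum was lower as well, at 203 to 349 CPM in flox/+ and 37.8 to 154 CPM in flox/flox villi, without overlap, and its part was not tested.

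For the chromogranins, the size of the fall differed between compartments of the Vil1 mice in opposite directions. The crypt effect minus the villus effect was -1.07 ± 0.24 for Chga (adjusted p = 0.00892), that is, a larger fall in crypts, and 1.13 ± 0.34 for Chgb (adjusted p = 0.0349), a smaller fall in crypts. Neurod1 (1.45 ± 0.43, adjusted p = 0.0292) and Rfx6 (0.88 ± 0.29, adjusted p = 0.0486) also fell less in crypts. These 4 of 10 compare with 15.5% of all tested genes called in either direction, 6.14% higher and 9.38% lower. Each Vil1 crypt library had a villus library of the same animal, while some flox/flox villus animals had no crypt library. Flox/flox crypt animal 3 and flox/flox villus animal 4 are the same mouse, so flox/flox animal numbers hold only within a compartment here. With the animal as a block only Chga was called (-1.14, adjusted p = 0.0173), while Chgb (0.80, adjusted p = 0.0914), Neurod1 (1.11, adjusted p = 0.0852) and Rfx6 (0.73, adjusted p = 0.226) were not. Left out singly, 13 of the 17 libraries ended the Rfx6 call, 9 the Chgb call and 4 the Neurod1 call, and 1 to 4 members were called. The lower counts came without flox/+ crypt animal 1, 2 or 4, flox/flox crypt animal 1, 2 or 3 or flox/+ villus animal 1 or 2. In Rosa26 mice edgeR called 0 of 10 for this difference, with 0 at an unadjusted p under 0.05 and 0 by DESeq2, while 11.5% of all genes were called. With the animal as a block 1 was called there, again Chga (-1.08, adjusted p = 0.00816).

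In the Rosa26 mice the flox/flox crypts were more varied. Of the 10 members, 6 were called lower, where 11.6% of 15846 genes were, and 7 did not overlap between the groups, where 13% of genes lay lower without overlap. The median log2 fold change was -1.43 beside 0.04 over all tested genes. Neurog3 stood at 3.93, 6.66, 5.96, 4.51 and 6.50 CPM in flox/+ and 0.397, 1.96, 1.45 and 4.33 CPM in flox/flox crypts of animals 1, 3, 4 and 5. The first 3 flox/flox values lay under every control, and animal 5 lay within the control range. The log2 fold change of -1.39 ± 0.52 was not called by edgeR (adjusted p = 0.0849) and was by DESeq2's Wald test (-1.38, adjusted p = 0.0295). Neurod1 fell from between 2.54 and 6.17 to between 0.663 and 1.85 CPM (-1.86 ± 0.34, adjusted p = 0.00573), a call lost with all 4 tissue groups in the fit (-1.89, adjusted p = 0.0625). Insm1 stood at 15.2, 17.6, 18.2, 12.2 and 19.4 against 4.40, 3.60, 3.99 and 11.3 CPM (-1.47 ± 0.31, adjusted p = 0.0123). Here too animal 5 was the nearest to the controls, though under them. Nkx2-2 fell by 1.78 ± 0.36 (adjusted p = 0.00943) and Rfx6 by 1.29 ± 0.38 on the log2 scale (adjusted p = 0.043). Pax4, Pax6 and Isl1 had log2 fold changes of -1.20, -0.85 and -0.79 that did not pass (adjusted p = 0.0603 to 0.128). Chga fell from 117, 131, 204, 107 and 152 CPM to 17.2, 15.1, 23.6 and 49.9 CPM (-2.39 ± 0.35, adjusted p = 0.00241) and Chgb from 244, 251, 347, 195 and 289 to 49.1, 40.3, 63.1 and 141 CPM (-1.82 ± 0.34, adjusted p = 0.00653).

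How many members were called in Rosa26 tissue depended on homozygous animal 5. It was the highest flox/flox crypt library for all 10 members and the highest flox/flox villus library for 9 of 10. Its Eif4g2 level, 101 CPM in crypts and 61.3 CPM in villi, was the top of the flox/flox ranges of 68.4 to 101 and 48.3 to 61.3 CPM, well under the controls. With 1 crypt library left out at a time, 1937 to 4732 of all tested genes were called in either direction, beside 3198 with none left out. Without animal 5 all 10 members were called in crypts, with Neurog3 at -1.99 (adjusted p = 0.0122), Pax4 at -1.50 (0.0309), Pax6 at -1.29 (0.00634) and Isl1 at -1.12 (0.0287). Chga then fell by 2.83 and Chgb by 2.28 on the log2 scale. In the other direction, the Rfx6 call was lost without any 1 of the 8 other libraries (adjusted p up to 0.136), with DESeq2's size factors (adjusted p = 0.0506), without the low-count filter (0.0650) or with all 4 tissue groups in the fit (0.223), and the Insm1 call without flox/flox animal 4 (-1.31, adjusted p = 0.05003). Ddx3y, a Y-linked gene, had reads in every flox/+ library and was at 0 in flox/flox crypts of animals 3, 4 and 5 and villi of animals 3, 4 and 5. Y status therefore largely followed genotype. Y-linked transcripts were used as a covariate in an alternative added after the values were seen. Its crypt genotype term set flox/flox animal 1 alone against the flox/+ mice, so only sizes are given. They were -3.68 for Neurog3, -2.18 for Nkx2-2, -1.88 for Neurod1 and -1.81 for Insm1 on the log2 scale.

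In Rosa26 villi 6 members passed the low-count filter and 4 of them were called lower, where 18.2% of 13579 genes were. The median of the 6 was -1.72 beside -0.01 over all tested genes. Insm1 stood at 3.71, 4.11, 5.74, 3.54 and 4.26 CPM in flox/+ and 1.10, 0.434, 0.593, 1.48 and 3.20 CPM in flox/flox villi (-1.70 ± 0.46, adjusted p = 0.0155), without overlap. Chga stood at 49.8, 93.7, 127, 73.9 and 82.5 against 21.2, 17.4, 18.2, 32.9 and 64.5 CPM (-1.55 ± 0.41, adjusted p = 0.016) and overlapped through animal 5 only. Chgb stood at 109, 174, 201, 123 and 151 against 21.7, 20.01, 19.99, 58.2 and 119.8 CPM (-1.73 ± 0.53, adjusted p = 0.0316), again with animal 5 alone inside the control range. Pax6 fell from between 0.402 and 1.08 to between 0 and 0.484 CPM (-1.80 ± 0.59, adjusted p = 0.0345). Neurod1, at 2.10, 4.47, 6.92, 4.06 and 3.18 against 0.0845, 0.0482, 0.365, 1.66 and 2.45 CPM, had a log2 fold change of -2.21 ± 0.79 (adjusted p = 0.0526) and Rfx6 one of -1.66 ± 0.90 (adjusted p = 0.18). Neurod1 was called by DESeq2's Wald test (-2.23, adjusted p = 0.0113), with all 4 tissue groups in the fit (-2.17, adjusted p = 0.0182) and with the series of animal numbers as a covariate (-2.68, adjusted p = 0.0163). With Y-linked transcripts as a covariate all 6 tested members were called, Neurod1 at -5.90 (adjusted p = 0.00345) and Rfx6 at -5.25 (adjusted p = 0.0344). The genotype term of that fit set only flox/flox animals 1 and 2 against the flox/+ villi, because the other flox/flox villi had no Ddx3y read. Without flox/flox animal 5, 7 of 7 tested members were called, Neurod1 (-3.002, adjusted p = 0.014), Isl1 (-2.61, 0.0163) and Rfx6 (-2.92, 0.0277) among them. Only 2 were called without flox/+ animal 5 or flox/flox animal 2 or 4. Of all tested genes, 3519 to 4872 were called in either direction with 1 villus library left out, beside 4504 with none left out. The Chgb call was lost without the low-count filter (-1.71, adjusted p = 0.0868) and without any 1 of 7, and the Pax6 call without any 1 of 6, of the 10 libraries.

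**Figure D2:**
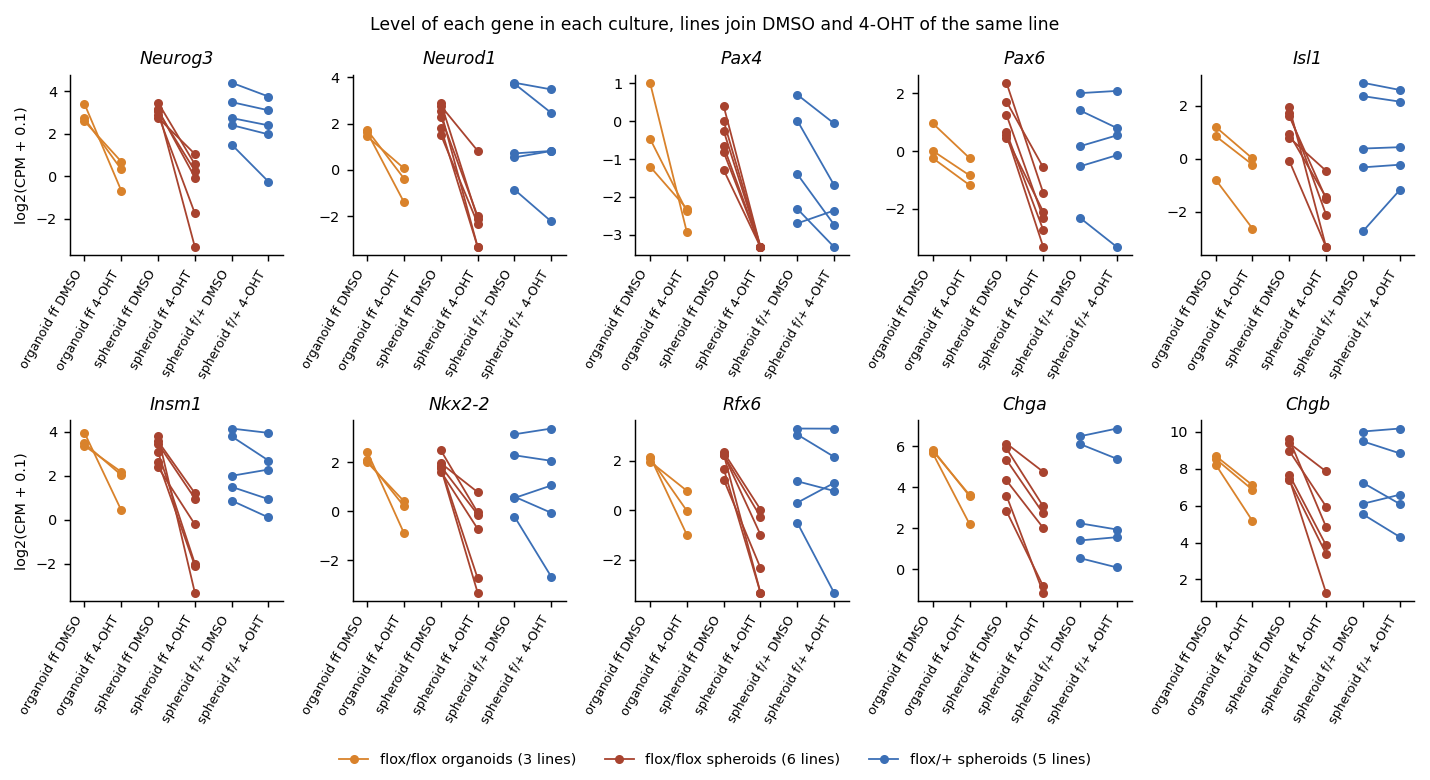
Level of each member in the DMSO and 4-OHT cultures, as log2(CPM + 0.1), with a line joining the 2 treatments of the same culture line for flox/flox organoids (3 lines, orange), flox/flox spheroids (6 lines, red-brown) and flox/+ spheroids (5 lines, blue). Every orange and red-brown line slopes down for all 10 genes, while the blue lines slope down in 5 of 5 lines for Neurog3 and in both directions for Chgb.

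Organoids are cultures of epithelium, and the immune and stromal marker lists summed to at most 1.01 and 1.46 CPM in them. In flox/flox organoids 8 of 10 members fell with 4-OHT, where 17.2% of all tested genes were called lower, and 9 did not overlap, where 24.1% of genes lay lower without overlap. Each of the 10 was lower in 3 of 3 lines, and their median log2 fold change was -2.16 beside 0.03 over all tested genes. Neurog3 went from 6.53, 5.98 and 10.6 CPM in DMSO to 1.16, 1.52 and 0.528 CPM with 4-OHT in lines 1, 2 and 3 (-2.86 ± 0.41, adjusted p = 0.00232). Neurod1 went from 3.19, 2.62 and 2.98 to 0.672, 0.947 and 0.280 CPM (-2.22 ± 0.39, adjusted p = 0.00502). Its call was lost with the A-485 libraries in the fit (-2.21, adjusted p = 0.0617). Line 3 was the lowest 4-OHT library for these 2 genes and for the other 8. Chga went from 54.6, 56.8 and 50.2 to 12.2, 11.8 and 4.504 CPM (-2.52 ± 0.34, adjusted p = 0.00191). Chgb went from 370.2, 415 and 300.1 to 116, 138 and 35.9 CPM (-1.92 ± 0.44, adjusted p = 0.0144), a call lost without the low-count filter (-1.90, adjusted p = 0.109). Insm1, Nkx2-2 and Rfx6 fell by 1.93, 2.30 and 2.10 on the log2 scale, and Pax4 by 3.60 from at most 1.93 CPM. The crypt marker sum moved with them, from 1700 to 2092 CPM in DMSO to 352 to 474 CPM with 4-OHT, and its part was not tested. Pax6 (-1.20 ± 0.46, adjusted p = 0.0795) and Isl1 (-1.38 ± 0.79, adjusted p = 0.216) were not called, and both were with the line as a block (-1.16, adjusted p = 0.0162, and -1.42, adjusted p = 0.0156).

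The second organoid experiment compared genotypes with 4-OHT in all of them. Against flox/+ lines, 9 of 10 members were lower in flox/flox lines, where 24.3% of all tested genes were called lower, with a median of -1.45 beside -0.01. Against the CreER-only lines it was 8 of 10, where 23.5% were called, with a median of -1.37 beside -0.0028. These comparisons share the flox/flox lines. Neurog3 stood at 5.54, 5.90, 4.05 and 6.96 CPM in CreER-only, 5.21, 8.39, 5.42 and 4.20 CPM in flox/+ and 1.67, 2.92, 2.53 and 2.55 CPM in flox/flox lines. The flox/flox values lay below all others, with a log2 fold change of -1.25 ± 0.25 against flox/+ (adjusted p = 0.000761). Neurod1 stood at 4.12 to 4.88, 4.60 to 5.79 and 0.711 to 1.65 CPM (-2.21 ± 0.22, adjusted p = 2.03e-06). Chga stood at 67.5, 91.4, 75.7 and 79.7, then 49.3, 59.1, 92.8 and 81.4, then 26.1, 28.6, 23.4 and 15.9 CPM (-1.59 ± 0.22, adjusted p = 0.000184). Chgb stood at 533, 625, 581 and 633, then 524, 632, 687 and 558, then 264, 228, 251 and 205 CPM (-1.34 ± 0.09, adjusted p = 7.06e-08). Flox/+ and CreER-only lines overlapped for all 4 genes, and edgeR called 0 of 10 members between them, with 0 at an unadjusted p under 0.05 and 0 by DESeq2, at log2 differences from -0.18 to 0.44 and where 0.113% of all genes were called. Pax6 was called against neither control (-0.87 ± 0.35, adjusted p = 0.0561, against flox/+), but was against flox/+ without flox/+ line 1 (-1.03, adjusted p = 0.0310). Isl1 was called against flox/+ (-1.52 ± 0.49, adjusted p = 0.0192), a call lost without flox/+ line 3 (-1.08, adjusted p = 0.0904), and not against CreER-only lines (-1.08 ± 0.50, adjusted p = 0.0916). The crypt marker sum moved with these differences, at 7943 to 9623 CPM in CreER-only, 7876 to 9237 CPM in flox/+ and 1921 to 2909 CPM in flox/flox lines, and its part was not tested.

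Fetal spheroids are cultures of the fetal gut epithelium and varied far more among themselves. In the 6 flox/flox lines every member was lower with 4-OHT in 6 of 6 lines, 8 of 10 members were called where 10% of all tested genes were, and 8 did not overlap where 4.17% of genes lay lower without overlap. The median log2 fold change was -3.48, or -3.34 with Pax4 at the bound that its 0 reads allow, beside -0.02 over all tested genes. Neurog3 had a lowest, median and highest value of 6.72, 8.51 and 11.1 CPM in DMSO and 0, 0.985 and 1.98 CPM with 4-OHT (-3.20 ± 0.72, adjusted p = 0.00386). Neurod1 had 2.76, 5.24 and 7.34 CPM in DMSO and 0, 0.117 and 1.67 CPM with 4-OHT (-3.91 ± 1.10, adjusted p = 0.0161). Insm1 had 5.10, 9.52 and 13.7 and 0, 0.456 and 2.20 CPM (-3.47 ± 0.87, adjusted p = 0.00823). None of these 3 overlapped, and line 3 held the highest 4-OHT value of Neurod1. Line 4 with 4-OHT was the lowest library of its group for 6 of 10 members. It had 13402 genes with any read from 24573440 reads, where the other lines with 4-OHT had 17530 to 20000 genes. The part of this was not tested. Pax4 had no read in any of the 6 libraries with 4-OHT against 0.310 to 1.22 CPM in DMSO, at least 4.22-fold lower with 3 reads per library as the floor (adjusted p = 0.00254). Pax6 fell by 3.72 ± 0.97, Isl1 by 3.48 ± 1.00 and Rfx6 by 3.50 ± 1.01 on the log2 scale (adjusted p = 0.0103 to 0.019). The Nkx2-2 call (-2.53 ± 0.89, adjusted p = 0.0495) was lost without any 1 of 11 of the 12 libraries, with DESeq2's size factors (adjusted p = 0.0507) and without the low-count filter (adjusted p = 0.0838).

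The chromogranins were the 2 members that edgeR did not call in flox/flox spheroids, whereas DESeq2's Wald test called Chgb (-2.87, adjusted p = 0.0198). Chga stood at 59.4, 7.08, 70.2, 40.3, 20.1 and 12.0 CPM in DMSO in lines 1 to 6 and 8.32, 0.465, 26.9, 6.52, 3.97 and 0.355 CPM with 4-OHT. Chgb stood at 501, 177, 668, 770.3, 204 and 167 and then 61.8, 2.33, 231, 28.8, 14.4 and 10.4 CPM. Line 3 kept the most of both with 4-OHT, and the ranges overlapped, although every line was lower than its own DMSO culture. The log2 fold changes were -2.18 ± 1.21 (adjusted p = 0.23) and -2.84 ± 1.08 (adjusted p = 0.0723). With the line as a block, both were called, Chga at -2.80 (adjusted p = 0.00194) and Chgb at -3.85 (adjusted p = 0.00506), as were all 9 members tested in that fit. Over all tested genes the block raised the number called in either direction from 2864 to 4649. Without the 4-OHT library of line 3, Chgb was called (-4.13, adjusted p = 0.0145).

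Flox/+ spheroids covered a wide range on their own, as did their crypt marker sum (124 to 10562 CPM in DMSO) and stromal marker sum (6.17 to 215 CPM, against 1.35 to 8.12 CPM in flox/flox lines), whose part was not tested. Chgb stood at 46.2, 151, 68.6, 717 and 1037 CPM in lines 1 to 5 in DMSO and 19.7, 68.3, 96.4, 458 and 1159 CPM with 4-OHT, and Neurog3 at 2.73, 5.25, 6.63, 11.2 and 21.2 and then 0.743, 3.85, 5.20, 8.56 and 13.5 CPM. Line 5 with 4-OHT was the highest of its group for 10 of 10 members and line 1 the lowest for 10 of 10. Neurog3 was lower with 4-OHT in 5 of 5 lines, at -0.57 ± 0.72, or -0.62 with the line as a block (adjusted p = 1 and 0.415). With 4-OHT edgeR called 0 of 10, with 0 at an unadjusted p under 0.05 and 0 by DESeq2, at log2 fold changes from -1.21 to 0.01, and 0% of all genes were called. Between flox/flox and flox/+ lines in DMSO it called 0 of 10 as well, again with 0 and 0, at -0.26 to 0.57. With 4-OHT in both, 7 of 10 were called lower in flox/flox lines, where 6.13% of genes were, among them Neurog3 (-2.77 ± 0.73, adjusted p = 0.0177) and Insm1 (-2.79 ± 0.87, adjusted p = 0.0437). That count was 0 without flox/+ line 5 and 2 to 4 without flox/flox line 2, 4, 5 or 6 or flox/+ line 2, 3 or 4. With the prefix of the line name, which several lines share, as a covariate the count was 1. The difference between the 4-OHT effects of the 2 genotypes was negative for the 9 members other than Pax4, -3.66 for Pax6 to -2.16 for Chga. No size is given for Pax4, which had no read in flox/flox lines with 4-OHT (unadjusted p = 0.00353, adjusted p = 0.107). Yet edgeR called 0 of 10, with 7 at an unadjusted p under 0.05 and 0 by DESeq2, where 1.62% of genes were called in either direction. Without flox/flox 4-OHT line 3, 1 was called, Neurod1 (-5.38, adjusted p = 0.0482). DMSO and 4-OHT cultures came from the same lines, and with the line as a block 9 of 10 were called, with Chga at -2.56 (adjusted p = 0.00446), Chgb at -3.36 (0.013), Neurog3 at -2.82 (0.0192) and Neurod1 at -4.23 (0.00509), and Nkx2-2 alone not (-2.51, adjusted p = 0.0537). That block also raised the number of all tested genes called in either direction, from 243 to 2758.

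**Figure D3:**
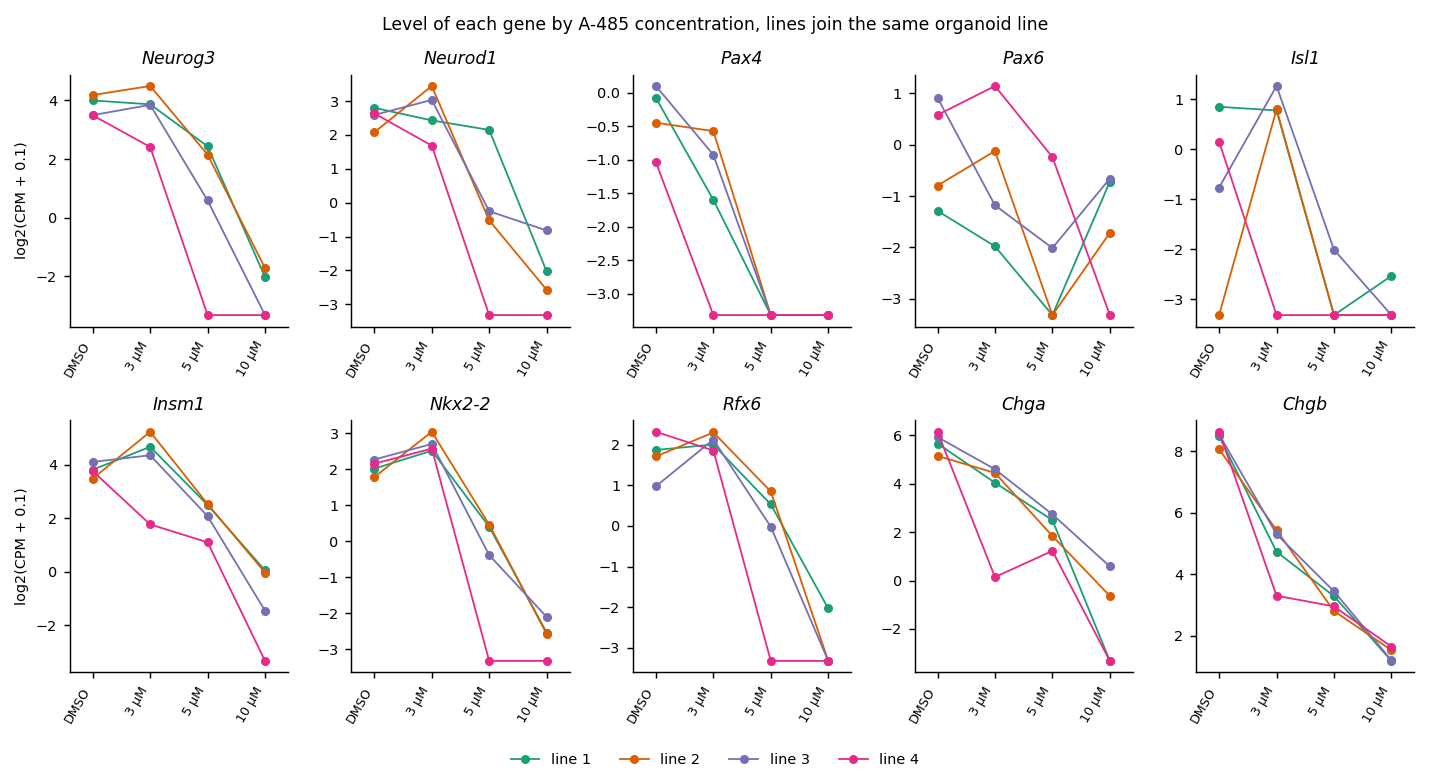
Level of each member in 4 organoid lines at 0 (DMSO), 3, 5 and 10 µM A-485, as log2(CPM + 0.1), with 1 line per culture line. Chgb declines at each step, Neurog3, Insm1 and Nkx2-2 are near or above their DMSO level at 3 µM in lines 1 to 3 and lower at 5 and 10 µM, and line 4 is the lowest line at 3 µM for 8 of 10 genes.

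In the A-485 series the members were called at different doses. At 3 µM, 1 of the 9 tested members was called lower, Chgb, where 8.42% of all tested genes were called lower. The median of the 9 was 0.25 beside 0.0039 over all tested genes. Chgb stood at 358, 267, 374 and 397 CPM in DMSO in lines 1 to 4, 26.5, 43.1, 39.4 and 9.76 CPM at 3 µM, 9.65, 6.88, 10.8 and 7.65 CPM at 5 µM and 2.17, 2.79, 2.20 and 3.03 CPM at 10 µM. No dose overlapped DMSO, and the log2 fold changes were -3.55 ± 0.32 (adjusted p = 1.16e-06), -5.31 ± 0.35 (6.86e-09) and -7.11 ± 0.39 (2.64e-10). Chga stood at 50.7, 35.5, 61.0 and 71.0, then 16.4, 21.8, 24.2 and 1.01, then 5.56, 3.48, 6.57 and 2.24, then 0, 0.544, 1.40 and 0 CPM. All 4 lines were below DMSO at 3 µM, but the change of -1.77 ± 0.65 was not called (adjusted p = 0.0717), and was with the line as a block (-2.06, adjusted p = 0.0386). At 5 and 10 µM Chga fell by 3.60 ± 0.72 (adjusted p = 0.000649) and 6.66 ± 0.89 (adjusted p = 8.99e-06) on the log2 scale.

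The commitment factor Neurog3 and its immediate followers were not called at 3 µM. Neurog3 stood at 15.9, 18.1, 11.2 and 11.2 CPM in DMSO and 14.5, 22.4, 14.3 and 5.23 CPM at 3 µM, a log2 fold change of 0.01 ± 0.62 (adjusted p = 0.993) whose SE leaves a change in either direction possible. It then stood at 5.31, 4.33, 1.40 and 0 CPM at 5 µM (-2.33 ± 0.67, adjusted p = 0.00831) and 0.145, 0.204, 0 and 0 CPM at 10 µM (-7.09 ± 0.99, adjusted p = 8.02e-06). Insm1 stood at 14.0, 11.1, 17.1 and 13.5 CPM in DMSO and 25.4, 37.5, 20.4 and 3.32 CPM at 3 µM, higher in lines 1 to 3 and lower in line 4 (0.64 ± 0.53, adjusted p = 0.436). Without line 4 at every dose, an alternative added after the values were seen, Insm1 was called higher (0.98, adjusted p = 0.0207). Nkx2-2 was higher at 3 µM in 4 of 4 lines without overlap, where 12.4% of all genes lay higher without overlap, at 3.94, 3.33, 4.71 and 4.34 CPM in DMSO and 5.60, 8.11, 6.39 and 5.84 CPM, and was not called (0.68 ± 0.54, adjusted p = 0.427). Line 4 was the lowest line for 8 of the 10 members at 3 µM, 7 at 5 µM and 8 at 10 µM. Its libraries also had the fewest reads at each of these doses and the fewest genes with any read. These were 13158 genes at 3 µM (other lines 16865 to 17640), 14557 at 5 µM (15388 to 17371) and 13943 at 10 µM (15748 to 16843). In DMSO line 4 had 17595. The part of this in the low values of line 4 was not tested.

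At 5 µM, 8 of 9 tested members were called lower than in DMSO, where 25.1% of genes were, with a median of -2.33 beside -0.02. At 10 µM it was again 8 of 9, where 32.6% of genes were, with a median of -5.61 beside -0.05. Neurod1 stood at 6.88, 4.12, 5.93 and 6.13 CPM in DMSO, 4.34, 0.595, 0.738 and 0 CPM at 5 µM and 0.145, 0.0680, 0.466 and 0 CPM at 10 µM, with line 1 the slowest to decline. Rfx6 ended at 0.145, 0, 0 and 0 CPM from 3.55, 3.17, 1.87 and 4.89 CPM in DMSO (-6.15 ± 1.00, adjusted p = 3.27e-05). Pax6 was the member not called at either dose (-2.17 ± 1.16, adjusted p = 0.134, at 5 µM and -1.60 ± 1.11, adjusted p = 0.221, at 10 µM), from 0.309 to 1.79 CPM in DMSO, and was called at 5 µM without line 4 at that dose (-4.11, adjusted p = 0.0222). Pax4 was too low to test and had no read at 5 or 10 µM, at least 3.03-fold and 3.01-fold lower than its DMSO mean of 0.712 CPM. At 5 µM 5 members were called without line 1 at every dose, without its DMSO library alone or without the 5 µM library of line 4. The Neurod1 call (0.0419) was lost without any 1 of 7 of the 8 libraries, the Rfx6 call (0.0464) without 6, the Isl1 call (0.0226) without 4 and the Insm1 call (0.0186) without the 5 µM library of line 4. Without the low-count filter Neurod1 (adjusted p = 0.0742), Rfx6 (0.0581) and Insm1 (0.0612) were not called, and with only the 2 groups in the fit Neurod1 was not (0.0583). At 10 µM Isl1 was not called without line 1 at every dose (-5.63, adjusted p = 0.061). Between neighbouring doses, 7 members were lower at 5 than at 3 µM, where 13% of genes were, and 7 lower at 10 than at 5 µM, where 12.4% were. The first count was 4 without line 2 at 3 µM or line 3 at 5 µM, the second 4 without line 1 at every dose. The crypt marker sum declined with dose too, from 7201 to 9026 CPM in DMSO to 786 to 1768, 224 to 287 and 73.6 to 99.4 CPM, and its part was not tested. The libraries of this set were the shallowest, and values near 0.1 CPM are 1 or 2 reads.

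**Figure D4:**
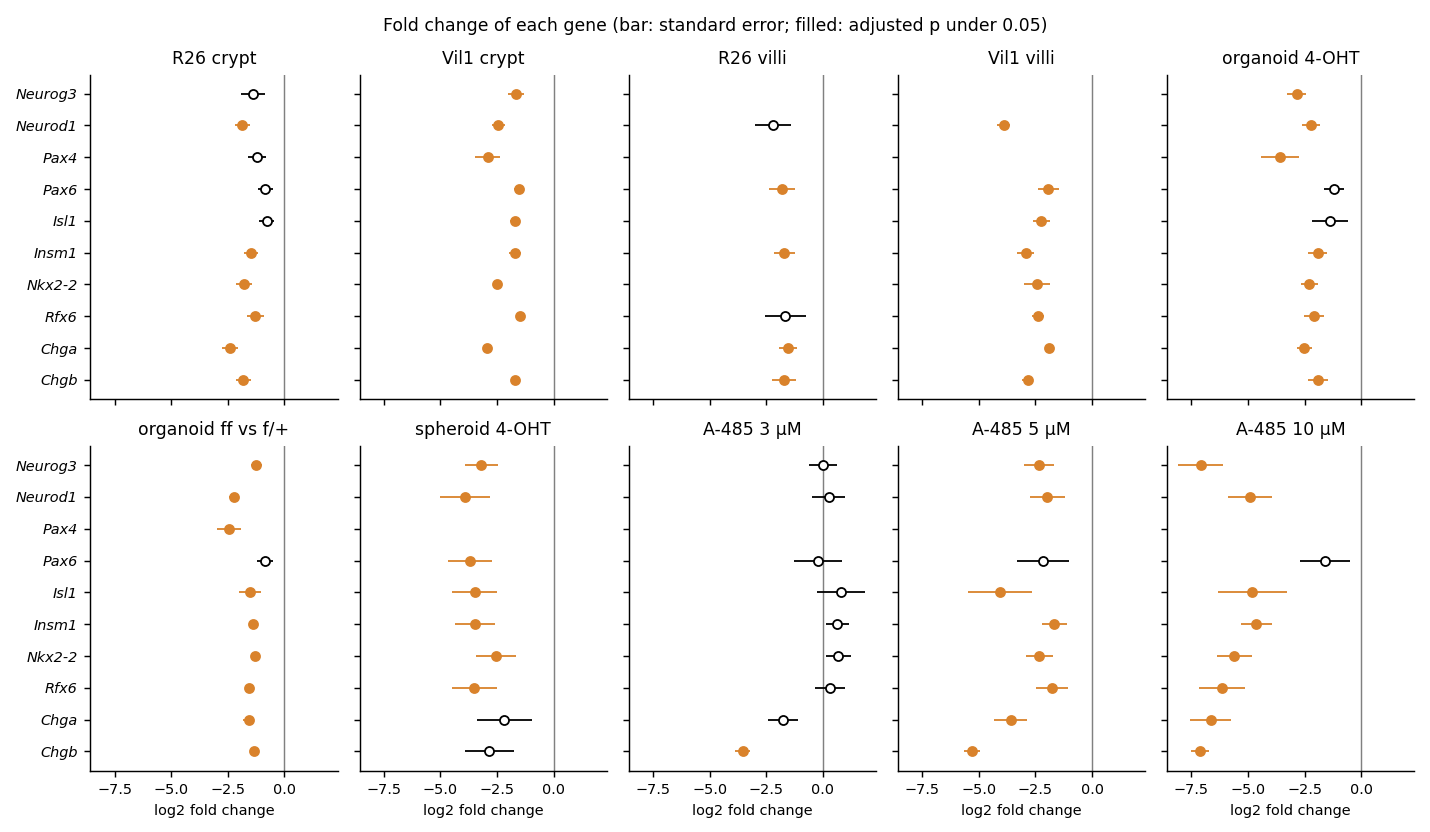
Log2 fold change ± SE of each member in 10 comparisons (Rosa26 and Vil1 crypts and villi, both organoid experiments, flox/flox spheroids, and A-485 at 3, 5 and 10 µM), with filled points for an adjusted p under 0.05. Genes that were not tested, and Pax4 in spheroids where all treated libraries were at 0, are not drawn; points lie below 0 in every panel but that of 3 µM A-485.

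Genes around these members were followed in 4 lists that were, like the members, chosen with earlier results of these data known. A list of 7 genes around the secretory choice held genes of the secretory progenitor and also Hes1, a Notch target that is not one of them. Hes1 was called lower in flox/flox than in flox/+ organoids (-0.91 on the log2 scale). Of the 7 listed genes, 6 were lower in Rosa26 and 5 in Vil1 crypts of flox/flox mice, with medians of -1.11 and -0.70, where 11.6% and 17.7% of all tested genes were called lower. In the DMSO and 4-OHT organoids, in flox/flox against flox/+ organoids and in flox/flox spheroids 5, 4 and 5 were lower, where 17.2%, 24.3% and 10% of all genes were. Dll4, a Notch ligand, fell by 1.85 in Rosa26 crypts, 2.07 in Vil1 crypts and 2.73 in the DMSO and 4-OHT organoids on the log2 scale. Atoh1, which starts the secretory fate, fell by 1.40 in Rosa26 crypts. At 5 and at 10 µM A-485 7 of 7 were lower, where 25.1% and 32.6% of all genes were. Of 11 further endocrine transcription factors, 7 were lower in Rosa26 and 10 in Vil1 crypts, 9 in the DMSO and 4-OHT organoids and 8 in flox/flox against flox/+ organoids, beside the same shares of all genes, 11.6%, 17.7%, 17.2% and 24.3%. Lmx1a, needed by serotonin cells, fell by 2.38 and 3.02 in the 2 crypt sets (in Rosa26 crypts not called with the replicate number as a block, -2.55, adjusted p = 0.0517). Foxa1, which many epithelial cells also express, was higher in Vil1 crypts (0.49 ± 0.12), in both organoid experiments (0.77 ± 0.07 and 0.61 ± 0.08) and at 3, 5 and 10 µM A-485 (0.58, 0.85 and 1.20).

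Granule genes other than the chromogranins were also counted. In flox/flox crypts 11 of 13 were called lower in Rosa26 mice, with a median of -2.13, and 10 of 12 in Vil1 mice, with a median of -2.41, where 11.6% and 17.7% of all tested genes were. In organoids 10 of 13 fell with 4-OHT, where 17.2% of all genes did, and 12 of 13 were lower in flox/flox than in flox/+ lines, where 24.3% were. In flox/flox spheroids 6 of 13 fell, where 10% of all genes did. Rab3c, a vesicle GTPase gene, fell by 3.19 in Rosa26 and 4.19 in Vil1 crypts on the log2 scale. Scg2, a granin, fell by 2.84 in Rosa26 crypts. At 3 µM A-485 edgeR called 1 granule gene, Cpe, a prohormone-processing carboxypeptidase gene, which was higher (0.92 ± 0.25, adjusted p = 0.0144). Cpe was also higher than in DMSO at 5 µM (1.90 ± 0.25) and 10 µM (1.71 ± 0.25), while it fell in Rosa26 and Vil1 crypts (-1.43 and -1.35). Of 8 hormone and serotonin genes tested at 3 µM, 5 were lower, with a median of -2.58, where 8.42% of all genes were. Gip, the glucose-dependent insulinotropic hormone gene, fell by 7.71 ± 0.76 and Tph1, the enzyme of serotonin synthesis, by 4.53 ± 0.61 on the log2 scale at that dose. In flox/flox crypts 10 of 11 of these genes were lower in Rosa26 and 8 of 11 in Vil1 mice (11.6% and 17.7% of all genes), with Gcg, the proglucagon gene, at -3.13 ± 0.52 and -3.66 ± 0.28.

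Across the 92 libraries, with each set centred on its own mean, the 45 pairs of members correlated at Pearson r from 0.564 to 0.924, with a median of 0.772. The libraries share animals, lines and treatments, so these values describe the libraries. Among 13100 genes, Chgb was the most like Chga (r = 0.901), followed by Tph1 (0.895), Reg4 (0.860), Slc6a4, the serotonin transporter (0.857), and Syt7 (0.852). The genes most like Neurog3 were A4gnt (0.907), Slc29a1 (0.905), Fam222a and Scn2b (both about 0.90).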

How the data were processed

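Polyadenylated RNA was sequenced from directional (dUTP) libraries, per the labels' protocols. The authors deposited 4 tables of raw read counts per gene. Reads were aligned with HISAT2 2.0.5 to GRCm38/mm10, per the submitters' processing notes. The counting program, annotation and strand setting are not given in the sources used here. All columns mapped to samples, with 0 left over.

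The deposited counts were tested with edgeR 4.0.16 in R 4.3.3 (filterByExpr, TMM, robust quasi-likelihood F-test), with Benjamini-Hochberg adjustment over all tested genes and calls at an adjusted p under 0.05. The SE is the log2 fold change divided by the square root of F. CPM were scaled by TMM over all groups of a set. A group at 0 was given a floor of 3 reads per library. Alternatives were DESeq2 1.42.0, its size factors, no low-count filter, other samples in the fit, each library left out, and a replicate block. Scripts were tested on simulated counts. The members and gene lists were chosen with earlier results of these data known. The text names every member, genes of most like pattern, Eif4g2, and from the other lists some of the 2 called genes of largest change in crypts, organoids and at 10 µM A-485. Foxa1, Cpe, Gcg, Gip, Tph1 and the marker genes were named after their values were seen.

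Crypts and villi shared animals, apart from flox/flox villus mice with no crypt library, and DMSO, 4-OHT and A-485 cultures shared lines, as the labels give. Rosa26 crypt genotypes shared numbers whose libraries deviated together (correlation 0.163 to 0.640), and those of the Rosa26 villi, Vil1 mice and organoid or spheroid genotypes did not in every pair. No 2 libraries of the same group were duplicates (smallest chi-square per degree of freedom 6.26 over 164 pairs). Pairs from different groups were not examined. Depth was 8652040 to 37611126 reads, and floors cover counting error only. Replicates are separate animals or lines. Spheroid line names share prefixes within and between genotypes, and some prefixes occur in only 1 genotype.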

Additional observations from a re-analysis of the deposited data

Results flagged for a closer look

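In 18 of 180 combinations of a member and a group of 4 to 10 libraries, 1 library stood apart from the rest by Dixon's 95% criterion. That criterion flags about 1 in 20, here 9, when values are independent and normally spread. The members correlated and some groups were mostly or all at 0, so 9 is not a firm baseline for the 18. In flox/flox Rosa26 crypts, animal 5 stood above the others for Pax6 (1.87 CPM, next 0.795), Insm1 (11.3 CPM, next 4.40) and Nkx2-2 (2.93 CPM, next 1.06). In flox/flox spheroids with 4-OHT, line 3 stood above the others for Neurod1 (1.67 CPM, next 0.151), Chga (26.9 CPM, next 8.32) and Chgb (231 CPM, next 61.8). These 6 concern 2 libraries whose removal changed calls.

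The others were spread over tissue and cultures. Flox/flox Vil1 villi had single high libraries for Neurog3 (animal 3, 0.132 CPM with the rest at 0), Pax4 (animal 1, 0.255 CPM, next 0.0607) and Nkx2-2 (animal 2, 0.538 CPM, next 0.212). Flox/+ Vil1 tissue had single low libraries for Pax4 in crypts (animal 4, 1.08 CPM, next 1.37) and Chgb in villi (animal 3, 179 CPM, next 309). Nkx2-2 was high in flox/+ Rosa26 villi of animal 4 (0.625 CPM, next 0.402) and in DMSO in flox/flox spheroid line 1 (5.47 CPM, next 3.78), and Pax4 in flox/+ spheroid line 5 with 4-OHT (0.861 CPM, next 0.211). With A-485, line 1 was high for Neurod1 at 5 µM (4.34 CPM, next 0.738) and for Isl1 (0.0723 CPM) and Rfx6 (0.145 CPM) at 10 µM with the rest at 0, and line 3 for Isl1 at 5 µM (0.148 CPM, the rest at 0). The values next to 0 are 1 to 3 reads.

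The effect of the deletion differed between crypts and villi of Vil1 mice for 4 members, as crypt minus villus on the log2 scale: Neurod1 by 1.45, Rfx6 by 0.88, Chga by -1.07 and Chgb by 1.13. With the animal as a block, only Chga kept an adjusted p under 0.05.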

How the results depend on the processing

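Of 185 results of members and named genes, 155 passed the test, 113 of these kept their call under every alternative in which the gene was tested and 0 changed sign. Alternatives in which a called gene had no adjusted p were left out of this count. The named genes other than members were entered because they were called. Counts of called members that moved by over 1.5 times were as follows. Leaving out 1 library at a time gave 4 to 10 in Rosa26 crypts (6 with all libraries), 2 to 7 in Rosa26 villi (4), 1 to 4 for the Vil1 crypt-minus-villus difference (4), 0 to 8 for flox/flox against flox/+ spheroids with 4-OHT (7), 0 to 1 for the difference of spheroid responses (0), 5 to 7 at 5 µM A-485 (8), 4 to 8 between 3 and 5 µM (7) and 0 to 2 between spheroids and organoids (0). Other samples in the fit gave 5 with all 4 tissue groups for the Rosa26 crypt-villus contrast (9), and with only the 2 groups 0 for spheroids with 4-OHT, 3 between 3 and 5 µM and 3 between 5 and 10 µM. Without the low-count filter there were 2 for the Vil1 difference, 3 for spheroids with 4-OHT and 4 between 3 and 5 µM. Without line 1 at every dose there were 5 at 5 µM and 4 between 5 and 10 µM, and without line 4 there were 2 at 3 µM. The prefix of the line name as a covariate gave 1 for spheroids with 4-OHT.

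With a replicate block made from the animal or line, where those pair the libraries, counts became 1 for each crypt-minus-villus difference, 9 for the spheroid responses and 2 at 3 µM. The numbers do not pair flox/flox with flox/+ spheroids, where the block gave 0 with 4-OHT, nor spheroids with organoids, where it gave 3. In Rosa26 villi, also not paired by every number, the block called Neurod1 (-2.83, adjusted p = 0.0434). Neurod1 between 5 and 10 µM was lost with the line as a block (-2.65, adjusted p = 0.0561). The block changed no other call of a member beyond those given beside the results.

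Values near 0 changed sign without passing the test: Neurod1 in the Rosa26 crypt-villus contrast (0.12 without the filter, 0.0022 with all 4 groups, 0.041 with the block, -0.17 to 0.31 leaving out 1 library) and, at 3 µM A-485, Neurog3 (-0.010 with DESeq2's size factors, -0.013 with its Wald test, -0.17 with the block, -0.32 to 0.28 leaving out 1 library), Neurod1 (-0.070 to 0.49) and Pax6 (-1.16 to 0.23).

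Counts over all genes moved by over 1.5 times in Rosa26 villi with Y-linked transcripts (2967 against 4504), for the Rosa26 crypt-minus-villus difference (1904, against 2884 by DESeq2's Wald test, 1221 unfiltered and 777 with the block), with A-485 libraries in the organoid fit (3079 against 5422), between flox/+ and CreER-only lines (16, against 148, 60 and 30), in flox/flox and flox/+ spheroids with the block (4649 against 2864 and 1 against 0), for spheroids with 4-OHT (1577, against 880, 141 and 564), for their responses (243, against 603, 123 and 2758), at 3 µM without line 1 (1374 against 2637) and between 3 and 5 µM with 2 groups (2229 against 3358). Leaving out 1 library gave 1937 to 4732 in Rosa26 crypts (3198), 3223 to 5978 in Vil1 crypts (4960), 1079 to 3068 and 1456 to 3425 for the Rosa26 and Vil1 crypt-minus-villus differences (1904 and 2766), 1 to 32 between flox/+ and CreER-only lines and 131 to 362 for the spheroid responses.

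Depth limits the lowest members. Pax4 rests on few reads in villi, spheroids with 4-OHT and A-485 libraries. Pax6 and Isl1 do so in Rosa26 villi, flox/flox Vil1 villi, flox/flox spheroids with 4-OHT and A-485 libraries. In flox/+ Vil1 villi Isl1 had 39 to 110 and Pax6 32 to 102 reads per library. In flox/+ spheroids with 4-OHT they had 6 to 160 and 0 to 111 reads.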

Other observations

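Flox/+ fetal spheroids and flox/+ adult organoids, both with 4-OHT, were also compared, in libraries of separate culture sets. Here edgeR called 0 of 10 members, with 0 at an unadjusted p under 0.05 and 0 by DESeq2, at log2 differences (spheroid minus organoid) from -1.52 for Pax4 to 0.52 for Isl1, while 47.9% of all genes were called in either direction. Leaving out 1 library at a time called 0 to 2 members.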
